A study of Rattus norvegicus with 24 samples.

Results

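The comparison set 3 left ventricle arrays of Dahl salt-sensitive rats labelled high salt at 6 weeks against 3 arrays labelled control at 6 weeks. These 6 arrays were chosen by their titles, from 24 columns that held 22 distinct arrays. The Dahl salt-sensitive rat is a strain whose blood pressure rises on a salty diet. According to the sample descriptions the rats were obtained at 5 weeks of age, and from 6 weeks of age the salt group ate chow with 6% NaCl while the controls were age-matched, sedentary and on normal chow. The labels do not say from when the weeks in the titles were counted, nor explain a second number that some 6-week titles carry (those of replicate 1). Beside these stood 10 other non-salt arrays: 3 of treadmill-exercised rats at 6 weeks, 3 controls of 15 weeks and 4 non-salt arrays of 3 weeks, of which 2 appear in the table under a control title and again under an exercise title. The descriptions give 6 weeks of exercise for all exercise arrays, also for those titled 3 weeks. High salt arrays of 3 and 15 weeks were in the fit as well, and those of 15 weeks served to compare the salt effect between weeks. All rats were of this 1 strain. Nothing in the labels ties an array to an animal of its own, and p-values therefore reflect no more than the spread between arrays, which may be technical.

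A left ventricle that pumps against raised pressure thickens and takes up again a part of the gene programme of the fetal heart. Its myocytes then make more of the natriuretic peptides encoded by Nppa and Nppb, hormones that make the kidney excrete salt and water and that relax vessels, and more skeletal alpha-actin from Acta1. The heart also carries a circadian clock, in which the activators Bmal1 and Clock drive the genes of their own repressors, among them Per2 and Nr1d1, over the course of a day.

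The ventricles on high salt had more mRNA of the natriuretic peptides, of skeletal alpha-actin, of the stretch-responsive cofactor Ankrd1 and of the endoplasmic reticulum chaperone Hsp90b1 than the ventricles of control rats of the same week, and less of the clock output gene Dbp and the clock repressor Nr1d1. Other control arrays or other non-salt arrays were then put in the place of the 6-week controls. Each of these genes had a probe set that passed the test in 1 or both of these comparisons. Ankrd1 passed only against the other non-salt arrays. Against the exercise arrays of 6 weeks only Nppb passed. In all, 942 of 6555 tested probe sets (14.4%) were called for high salt against control at 6 weeks, at an adjusted p under 0.05 from limma. Of these 435 were higher (6.64% of those tested) and 507 lower (7.73%). Differences are on the scale of log2(intensity + 40), in which 1 unit is a doubling of a bright signal, and are given as difference ± SE. The median difference over all tested probe sets was -0.15, and -0.046 after quantile normalization, which gave 523 higher and 409 lower calls. All changes below are to be read relative to that shift. The count was 585 and 500 without the salt arrays numbered 2 and 3, and 524 and 454 without the controls numbered 2 and 3.

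The control arrays of 6 weeks stood apart in a measure of RNA integrity. This measure is the ratio of the signals at the 3' and 5' ends of a control transcript, which rises when RNA is broken because the labelling starts from the 3' end. For GAPDH it was 1.58, 2.48 and 3.99 in the 3 controls, against 1.17, 1.04 and 1.10 in the 3 salt arrays. The exercise arrays of 6 weeks, the 3-week arrays and all salt arrays lay between 0.989 and 1.18, and the 15-week controls at 1.09, 1.52 and 1.58. Hexokinase gave 3.00, 8.35 and 11.06 in these controls and 2.19, 1.48 and 1.71 in the salt arrays. The salt and control arrays did not overlap for either transcript. Within the main comparison, diet and this ratio cannot be told apart, so each change was set beside other arrays, most of them with lower ratios. With the GAPDH ratio as a covariate limma called 15 probe sets, 11 of them among the 942, and with the actin ratio it called 0 (632 at an unadjusted p under 0.05). Of the 145 called probe sets named here, 4 were called in the GAPDH fit, 3 of Nppa and that of Acta1, while 129 had the same direction without a call and 12 the other direction. Among the lead genes that lost the call there, Nppb stood at 1.11 (adjusted p = 0.396), Hsp90b1 at 1.11 (adjusted p = 0.167) and Ankrd1 at 0.36 (adjusted p = 0.803). The probe sets of Dbp stood at -3.24 (adjusted p = 0.286) and -2.40 (adjusted p = 0.187), and those of Nr1d1 at -1.99 (adjusted p = 0.0502) and -1.45 (adjusted p = 0.381).

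Against the 4 distinct control arrays of other weeks that carried 1 label, 22 probe sets (0.336%) were called, 16 higher and 6 lower, and 738 had an unadjusted p under 0.05. Against the 10 other non-salt arrays 22 (0.336%) were called, 11 in each direction, and 749 had an unadjusted p under 0.05. Both comparisons use the same 3 salt arrays as the main one, and they hold age and, for the exercise arrays, training beside diet. Without the salt array 1, 2 or 3 the first count was 55, 2 and 10, and the second 42, 7 and 10. Of the 22 probe sets called with all arrays, 17, 1 and 8 were called again in the first comparison. In the second these were 13, 4 and 8 of the 22, so which probe sets were called depended on single salt arrays. Of the 942 probe sets, 29 were called in the same direction in 1 or both of them, 18 higher and 11 lower. Without the 15-week controls numbered 2 and 3, whose GAPDH ratios were close to that of the first 6-week control, the first count was 4 and the second 18. The median size of the 942 differences, taken in the direction of the call, was 1.016 against their own controls, 0.432 against the other controls and 0.34 against the other non-salt arrays. The first of these values was fixed by the choice of the probe sets and is only a description.

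**Figure D1:**
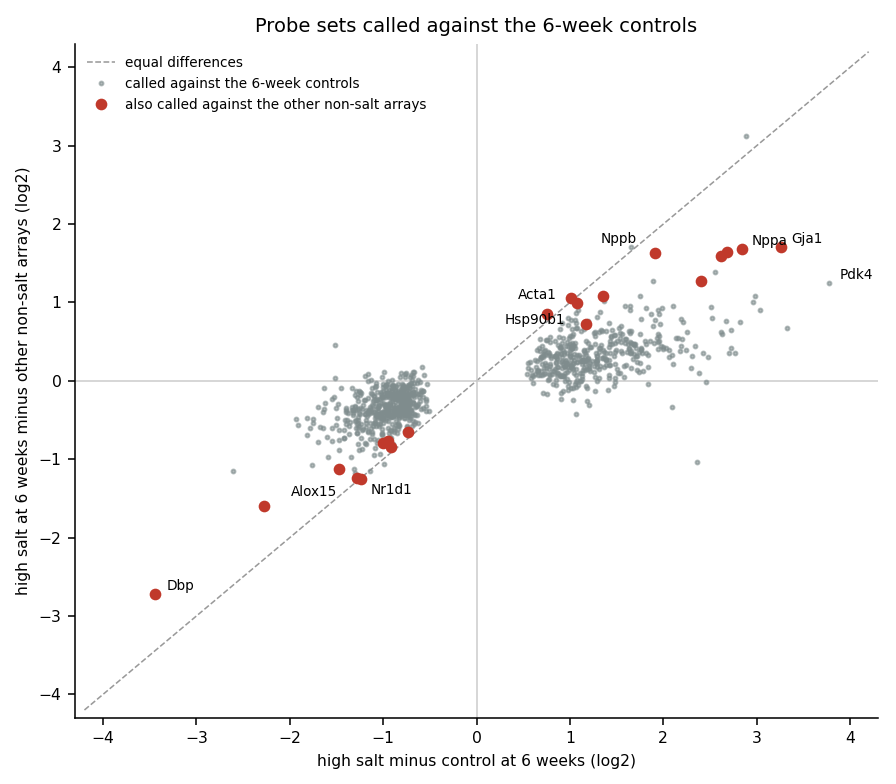
Each of the 942 probe sets called at 6 weeks, with its log2 difference between high salt and control at 6 weeks on the x axis and that between high salt and the 10 other non-salt arrays on the y axis. Most points lie between the dashed line of equal differences and 0, with a median size of 1.016 along x and 0.34 along y, while Nppb, Acta1 and 1 of the 2 Nr1d1 probe sets (the labelled point) lie near the line.

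Promoter sequences are shown for the load genes, since these rose together. The 250 bases before the RefSeq start of Nppa (chr5:163711934-163712183 on the plus strand of GRCr8), Nppb (chr5:163699758-163700007 on the plus strand) and Acta1 (chr19:68784195-68784444 on the minus strand) are printed below, 5′ to 3′ in the sense of the gene. Capitals mark 3 motifs searched on both strands: GATAA, the core bound by GATA factors, CATTCC, the MCAT element bound by TEAD factors, and the CArG box bound by serum response factor.
Nppa: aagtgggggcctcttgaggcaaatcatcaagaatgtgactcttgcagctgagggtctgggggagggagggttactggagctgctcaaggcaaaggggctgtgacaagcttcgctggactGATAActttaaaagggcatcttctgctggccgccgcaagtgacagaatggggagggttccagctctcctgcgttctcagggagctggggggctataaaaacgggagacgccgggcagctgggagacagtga
Nppb: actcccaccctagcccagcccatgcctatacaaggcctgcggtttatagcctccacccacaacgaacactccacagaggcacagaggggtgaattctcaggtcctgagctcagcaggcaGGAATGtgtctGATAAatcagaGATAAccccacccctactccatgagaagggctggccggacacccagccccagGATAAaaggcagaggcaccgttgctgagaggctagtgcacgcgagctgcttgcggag
Acta1: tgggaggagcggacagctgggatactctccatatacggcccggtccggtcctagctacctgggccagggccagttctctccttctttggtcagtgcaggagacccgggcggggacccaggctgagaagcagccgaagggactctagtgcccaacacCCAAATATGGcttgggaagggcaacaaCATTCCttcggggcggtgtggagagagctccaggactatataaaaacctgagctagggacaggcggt

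The window of Nppa held 1 GATAA, that of Nppb 3 of them and 1 MCAT element, and that of Acta1 1 MCAT element and 1 CArG box. Among 33469 RefSeq rat promoter windows of the same length, 23.47% held GATAA, 12.06% the MCAT letters and 1.5% a CArG box. These matches describe letters and not occupied sites.

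Nppa encodes atrial natriuretic peptide, which the adult ventricle makes little of until it is loaded. On 1 of its 4 probe sets the salt arrays read 9845, 8391 and 8181, the controls 2194, 703 and 1512, and the other non-salt arrays 1336 to 4162 with a median of 2763. All 3 salt arrays lay above all 13 non-salt arrays, and the same held on the other 3 probe sets. The log2 difference was 2.69 ± 0.29 against the 6-week controls (adjusted p = 8.4e-05), 1.58 ± 0.27 against the other controls (0.012) and 1.65 ± 0.27 against the other non-salt arrays (0.0059). The 4 probe sets rose by 2.41 to 2.84 against the 6-week controls and by 1.28 to 1.69 against the other non-salt arrays, so the rise was smaller without the 6-week controls. With the GAPDH ratio as a covariate 3 of the 4 were still called, at 2.65 to 3.01. Of 5 tested markers of atrial tissue, Nppa and Pam, an enzyme of peptide hormones, were higher, Pam by 0.63 ± 0.19. Myl7, the atrial light chain, read 228, 342 and 262 on salt and 303, 267 and 309.9 in controls (-0.08 ± 0.22, adjusted p = 0.85), and Myl4 126, 20.8 and 78.4 and 107, 25.8 and 20.8.

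Nppb, encoding B-type natriuretic peptide, read 5792, 7294 and 7911 on salt and 3123, 1274 and 1500.3 in the 6-week controls, and 1249 to 4348 with a median of 2229 on the other non-salt arrays. The salt arrays were again above all others of the non-salt groups. The log2 difference was 1.91 ± 0.28 (adjusted p = 0.00034), 1.21 ± 0.26 against the other controls (0.047) and 1.64 ± 0.23 against the other non-salt arrays (0.0015). It was also the only probe set of 6555 (0.0153%) called for high salt against exercise at 6 weeks, with 1.73 ± 0.28 (adjusted p = 0.029; 462 had an unadjusted p under 0.05). That call was lost after quantile normalization and without the filter on dim probe sets. In the exercised hearts Nppb read 2207, 1762 and 2252.

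Acta1, the gene of skeletal alpha-actin, had intensities of 16213, 16268 and 16661 on salt, 6985, 8618 and 7799 in the 6-week controls and 5996 to 10188 with a median of 8359.8 elsewhere among non-salt arrays. The log2 difference was almost the same whichever arrays served as the reference, at 1.07 ± 0.18 against the 6-week controls (adjusted p = 0.00087), 1.09 ± 0.17 against the other controls (0.0048) and 0.99 ± 0.14 against the other non-salt arrays (0.0015). With the GAPDH ratio as a covariate it was 1.40 and still called. Ankrd1, a nuclear and sarcomeric protein of myocytes that responds to stretch, read 26319, 21622 and 19675 against 16464, 13832 and 10202 in the controls and up to 17491 on the other non-salt arrays. Its difference of 0.75 ± 0.20 (adjusted p = 0.017) was 0.85 against the other non-salt arrays (0.015) and 0.53 against the other controls (0.27). The call against its own controls was lost without the salt array numbered 1 or the control numbered 3.

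Myh7, the slow beta-myosin heavy chain that the rodent ventricle makes more of under load, had 2 probe sets, of which 1 was called. It read 26115, 27264 and 20438 on salt, 17059, 12855 and 8133 in controls and 5533 to 20290.0 on the other non-salt arrays, with the salt arrays above all of them (1.01 ± 0.29, adjusted p = 0.023; 1.06 against the other non-salt arrays, 0.046). That call was lost without the salt array 1 or 2 or the control 2 or 3. The brighter probe set, which shares its family sequence with other myosins by the suffix of its name, stood at 0.51 ± 0.23 and did not pass (adjusted p = 0.13). For Myh6, the fast alpha-myosin of the adult rodent ventricle, the brightest probe set gave 0.32 ± 0.19 (adjusted p = 0.28), while 2 others rose by 2.25 and 1.78. On the last of these the controls read 15268, 3902 and 3441 and the salt arrays 15498, 22980.0 and 23985, so the first control lay just below the lowest salt array and the other controls far below it. Against the other non-salt arrays those 2 stood at 0.63 and 0.13, neither of them called.

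Hsp90b1, also known as GRP94, folds secreted and membrane proteins in the endoplasmic reticulum. It read 1689.9, 2474 and 2412 on salt against 940.5, 823 and 1051 in the 6-week controls and 1129.8 to 1466 on the other non-salt arrays. The salt arrays lay above and the 6-week controls below every other non-salt array, and the difference was 1.18 ± 0.17 against its own controls (adjusted p = 0.00034) and 0.73 against the other non-salt arrays (0.0099). Another called probe set of Hsp90b1 rose by 1.91 against the 6-week controls. It stood at 0.78 against the other non-salt arrays without a call (0.14). Egln3, a prolyl hydroxylase that marks hypoxia-inducible factor for destruction, read 867, 1351 and 1842 against 559, 409.9 and 483 and 415 to 818 elsewhere, with differences of 1.36 ± 0.25 and 1.08 (adjusted p = 0.0017 and 0.011). Its brighter probe set rose by 2.21 ± 0.32 against the 6-week controls and stood at 0.75 against the other non-salt arrays (0.22).

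**Figure D2:**
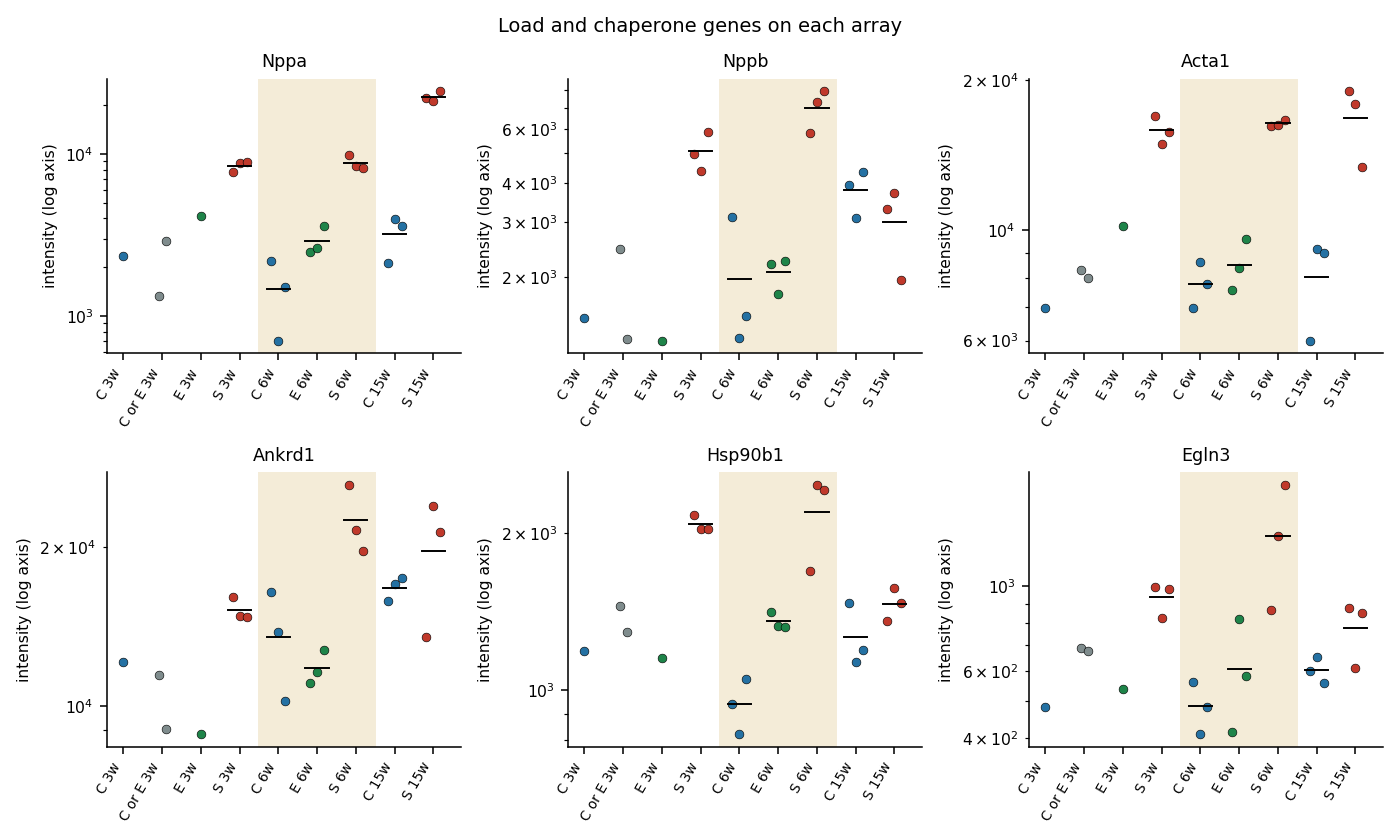
Intensity on a log axis for Nppa, Nppb, Acta1, Ankrd1, Hsp90b1 and Egln3 on each distinct array, with C for control, E for exercise and S for high salt, weeks on the x axis, bars at the mean of groups of 3 and shading over 6 weeks. At 6 weeks the salt arrays lie above all control and exercise arrays for each of these genes, at 5792 to 7911 for Nppb and 16213 to 16661 for Acta1.

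Gja1 encodes connexin 43, the gap junction protein that couples ventricular myocytes. It read 427, 2099 and 1794 on salt, 125, 52.7 and 95.6 in the 6-week controls and 129 to 577 on the other non-salt arrays. The salt array numbered 1 lay within the range of the other non-salt arrays, and only the salt arrays 2 and 3 lay above it, while the 6-week controls lay below every other array. The difference fell from 3.26 ± 0.46 against the 6-week controls (adjusted p = 0.00025) to 1.70 ± 0.37 against the other non-salt arrays (0.045). Fat1, a large cadherin, Hipk3, a protein kinase, and Ppm1b, a protein phosphatase, were called against both sets of controls. So were Pkia, an inhibitor of protein kinase A, and 1 probe set of Pdha1, a subunit of pyruvate dehydrogenase. These 5 rose by 1.37 to 2.99 against the 6-week controls, and by 1.48 to 1.70 against the other controls with adjusted p of 0.012 to 0.047. These 5 stood at 0.95 to 1.39 against the other non-salt arrays, and none was called there. Cebpb, a transcription factor gene named here after its values were seen, rose by 1.87 against the 6-week controls and 1.62 against the other controls. Its brighter probe set stood at 0.32 (adjusted p = 0.46). Another called probe set of Pdha1 rose by 1.26 against the 6-week controls. It stood at 0.08 against the other controls and 0.12 against the other non-salt arrays.

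Pdk4, the kinase that shuts off pyruvate dehydrogenase when the heart burns fat, had the largest rise of all called probe sets, 3.78 ± 0.53 (adjusted p = 0.00025). It read 564, 1259.6 and 2173 on salt and 116, 26.2 and 24.7 in the 6-week controls, but 1281, 1714 and 1622 in the exercise arrays of 6 weeks. The salt arrays overlapped the exercise arrays. Against the controls of other weeks Pdk4 rose by 2.76 (adjusted p = 0.016) and against all other non-salt arrays it stood at 1.25 (0.26).

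Several clock genes were among the lower probe sets, and 1 of Dbp had the largest fall of all called. Windows of 250 bases before the starts of Per2 (chr9:99496994-99497243 on the minus strand of GRCr8), Nr1d1 (chr10:84229455-84229704 on the minus strand, 1 of 2 RefSeq starts) and Bmal1 (chr1:176766078-176766327 on the plus strand) show the 3 elements by which clock factors act on one another's genes. Capitals mark TTATGTAA, a D-box of the kind that the Dbp protein binds, CACGTG, the E-box bound by the Bmal1 and Clock proteins, and TAGGTCA, the core of the RORE to which the Nr1d1 protein binds as a repressor, each searched on both strands.
Per2: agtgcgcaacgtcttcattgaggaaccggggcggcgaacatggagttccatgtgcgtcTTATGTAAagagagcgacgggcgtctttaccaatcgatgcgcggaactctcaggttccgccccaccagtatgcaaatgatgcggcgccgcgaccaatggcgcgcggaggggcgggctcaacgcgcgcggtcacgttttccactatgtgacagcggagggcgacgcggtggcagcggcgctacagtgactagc
Nr1d1: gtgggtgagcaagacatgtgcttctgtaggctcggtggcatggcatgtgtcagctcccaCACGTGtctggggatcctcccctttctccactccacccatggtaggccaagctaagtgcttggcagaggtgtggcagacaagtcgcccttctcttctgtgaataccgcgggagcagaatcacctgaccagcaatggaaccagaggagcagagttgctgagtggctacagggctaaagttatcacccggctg
Bmal1: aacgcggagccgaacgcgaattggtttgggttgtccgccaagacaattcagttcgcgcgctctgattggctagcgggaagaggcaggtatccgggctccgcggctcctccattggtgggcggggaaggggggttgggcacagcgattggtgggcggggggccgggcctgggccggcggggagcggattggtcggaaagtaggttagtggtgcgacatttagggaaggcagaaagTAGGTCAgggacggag

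Each of these windows held 1 match, a D-box for Per2, an E-box for Nr1d1 and a RORE core for Bmal1, and they are printed for that reason. The same search of the windows of Dbp and Nr1d2 and of the other start of Nr1d1 gave 0 matches, so that 3 of 6 windows held one. Of the 33469 windows, 0.83% held the D-box letters, 5.59% the E-box and 2.26% the RORE core.

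Dbp, a transcription factor whose mRNA swings widely over the day, read 545, 39.5 and 25.5 on salt and 1951, 1048 and 1780.1 in the 6-week controls. The salt array numbered 1 was far above the other two, and none reached the controls. The exercised hearts of 6 weeks read 384, 359.6 and 469, below all controls, and the other non-salt arrays spanned 359.6 to 1819. The log2 difference was -3.44 ± 0.56 against the 6-week controls (adjusted p = 0.00079), -3.34 ± 0.53 against the other controls (0.0049) and -2.72 ± 0.45 against the other non-salt arrays (0.0059). A second probe set changed by -2.27, -2.25 and -1.60 in the same comparisons, each called. Against the exercise arrays Dbp stood at -1.61 ± 0.56 (adjusted p = 0.53).

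Nr1d1, which encodes the repressor REV-ERB alpha, read 304, 321 and 186 on salt and 1159, 412 and 641 in the 6-week controls. In the exercise arrays it read 341, 215 and 301, which overlapped the salt arrays. Its difference was -1.24 ± 0.27 against the 6-week controls (adjusted p = 0.0053). It was larger, -2.43 ± 0.26, against the other controls (5.6e-05), where it had the smallest p of any probe set. Among those other controls the 15-week arrays read 2485, 2044 and 1955.5, above every other array, and the 3-week array read 640. Against the other non-salt arrays the difference of this probe set was -1.25 (0.015). The second Nr1d1 probe set changed by -1.48 and -1.82 in the first 2 of these comparisons, each called, and stood at -0.75 against the other non-salt arrays without a call (0.26). Nr1d2, its paralogue, read 449, 168 and 105 against 651, 565 and 537 (-1.34 ± 0.31, adjusted p = 0.0071), a call that was lost without the salt array 3, and stood at -1.05 against the other controls (0.16). Per2, a repressor of Bmal1 and Clock, changed by -1.05 ± 0.25 (0.0089). It read 372, 819 and 769 in the 6-week controls and 331, 249 and 258 on salt. Against the other controls it stood at -0.06, where the 15-week arrays read 248, 182 and 263 and the 3-week array 585. In the exercise arrays of 6 weeks Per2 read 399.8, 431 and 380. Its call was lost without the control 2 or 3.

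Bmal1, whose mRNA peaks opposite to that of Dbp, went the other way on 2 of 3 salt arrays. It read 26.3, 231 and 442 on salt against 28.4, 16.4 and 32.9 in controls, so the salt array numbered 1 stayed among the controls and the other two lay far above. The difference of 1.65 ± 0.52 had an adjusted p of 0.038, and the call was lost when any array but the salt array 1 was left out. Of 9 tested genes of the clock list, chosen like all lists here with earlier results of these data known, 4 were lower and 1 higher, with a median of -0.586 (55.6% called). Over all 3828 genes, each by its brightest probe set, 179 were higher and 329 lower (13.3% called in all), with a median of -0.186. For the comparison with the other non-salt arrays the clock median was -0.436 and that of all genes -0.057. The hour at which hearts were taken is not given in the sources used here, and its part in these values was not tested.

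**Figure D3:**
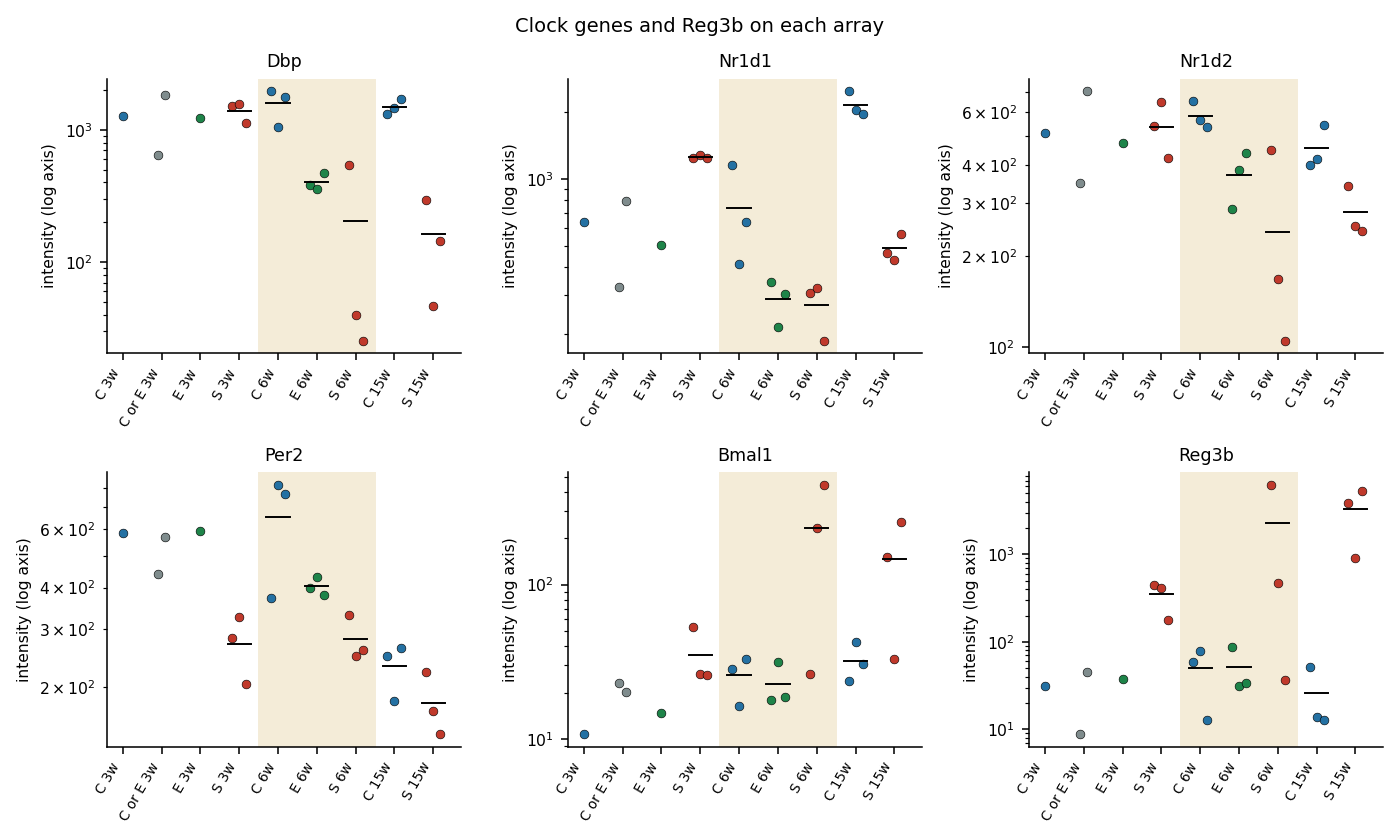
Intensity on a log axis for Dbp, Nr1d1, Nr1d2, Per2, Bmal1 and Reg3b on each distinct array, with groups, bars and shading as for the load genes. Dbp and Nr1d1 are low on both the exercise and the salt arrays of 6 weeks, and the salt array with the highest Dbp (545) has the lowest Bmal1 (26.3) and the highest Reg3b (6279).

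Other genes that fell in more than 1 comparison were enzymes, kinases and a few regulators. Alox15, an arachidonate lipoxygenase gene, was dim on salt, with 18.6, 30.7 and 21.4, against 47.8, 116 and 225 in the 6-week controls and 38.6 to 184 elsewhere (-1.28 ± 0.35, adjusted p = 0.017; -1.25 against the other non-salt arrays, 0.036). The first call was lost without the salt array 3 or the control 2 or 3. The readings of the 6-week controls rose in the order of their GAPDH ratios. With the GAPDH ratio as a covariate this probe set stood at -0.17 (adjusted p = 0.955). With the control numbered 1 as the only 6-week control it stood at -0.47. Its salt readings were below the constant added to intensities before the log. A brighter Alox15 probe set stood at -0.18 (adjusted p = 0.62). Pim3, a survival kinase, read 739, 537 and 707 against 1101, 1507 and 1317 and 882 to 1554 elsewhere, so the salt arrays were below all 13 non-salt arrays (-0.95 ± 0.20 and -0.76). Fer, a tyrosine kinase, Nfix, a nuclear factor, and Gpt, alanine aminotransferase, likewise lay below all non-salt arrays. These 3 changed by -1.0, -0.93 and -0.74 against the 6-week controls and stood at -0.79, -0.72 and -0.65 against the other non-salt arrays, where Fer and Gpt were called and Nfix was not (adjusted p = 0.046, 0.046 and 0.067). Nfix was called against the other controls (-0.90, adjusted p = 0.046). Wfdc1, a secreted protease inhibitor, changed by -0.91 and -0.85, and Phf7, a zinc finger protein, by -1.47 and -1.13, against the 6-week controls and the other non-salt arrays.

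The position of each array also told apart what stood out on the salt side and on the control side. The 3 salt arrays lay beyond all 13 non-salt arrays on 120 of 6555 probe sets (1.83%), and the 3 controls of 6 weeks lay beyond every other distinct array on 345 (5.26%). Of the 942 called probe sets, 70 (7.43%) were of the first kind, 246 (26.11%) of the second, 12 of both and 638 of neither. For 2012 of all tested probe sets (30.7%) the salt and control arrays of 6 weeks did not overlap, among them 870 of the 942. Beyond the genes above, the salt side held Ccng1, encoding cyclin G1, a target of p53, with 9648, 10438 and 12100.0 against 5929 to 9628 on the other non-salt arrays. It also held Epb41, encoding the membrane skeleton protein 4.1, with 403, 355 and 273 against 467 to 825, and Klf9, a glucocorticoid-responsive transcription factor gene, with 1613, 1393 and 1687 against 1839.9 to 3457. Against the other non-salt arrays these stood at 0.41, -0.78 and -0.63, none of them called (adjusted p = 0.56, 0.087 and 0.25). Against their own controls they were called at 2.0, -1.70 and -1.47. Aopep, an aminopeptidase, Gpd2, the mitochondrial glycerol phosphate dehydrogenase, and Mms19, of iron-sulphur protein assembly, were low on salt in the same way, at -1.50, -1.27 and -1.49 against their own controls.

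For another set of genes the 6-week controls lay beyond every other array. Aldoa, the glycolytic aldolase of muscle, read 6554, 2133 and 1262 in these controls, 9116, 17700.0 and 13582 on salt and 7538 to 15528 elsewhere. Its difference of 2.30 ± 0.41 (adjusted p = 0.0012) shrank to 0.16 against the other non-salt arrays (0.92). Hand2, a transcription factor of heart development, read 77.7, 42 and 48 in the controls, 345, 618 and 546 on salt and 129 to 782 elsewhere (2.48 ± 0.30 and 0.30). Pgm1, phosphoglucomutase, went from 2.70 to 0.36 between the same comparisons. In the other direction the controls were high for Fabp4, the fatty acid binding protein of fat cells and capillaries, with 2993, 6684 and 7001 against 1821, 2042 and 1508 on salt and 1652 to 2511 elsewhere. Sparc, a matrix-binding glycoprotein, read 5123, 6704 and 10923 in the controls and 3211, 1762 and 2119 on salt, and Scn7a, a sodium channel, 868, 1472 and 1579.5 and 391, 268 and 516. These 3 changed by -1.53, -1.64 and -1.64 against the 6-week controls and stood at -0.21, -0.09 and -0.36 against the other non-salt arrays. Lcat, Prickle2 and Rbm39 showed the same pattern, with -1.94, -1.82 and -1.62 against -0.48, -0.48 and -0.28.

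The 6-week controls themselves differed from the other control arrays on 157 probe sets (2.4%), 58 higher and 99 lower. Without the control numbered 2 limma called 0 (906 at an unadjusted p under 0.05), without the control 3 it was 6, and without the control 1, which has the lowest GAPDH ratio of the 3, it was 610. With the control numbered 1 as the only 6-week control, 36 probe sets were called for high salt, among them all 4 of Nppa, both of Dbp, both of Nr1d1, and those of Acta1, Cebpb (1 of 2), Hsp90b1, Hand2, Hipk3, Pdha1, Pgm1 and Ppm1b. The other 129 of the 145 named probe sets kept their direction without a call. Among these Nppb stood at 1.14 (adjusted p = 0.13), Ankrd1 at 0.44 (adjusted p = 0.531), Egln3 at 1.16 (adjusted p = 0.204) and Gja1 at 2.89 (adjusted p = 0.0538). The spread of a lone array is then assumed to be that of the other groups.

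**Figure D4:**
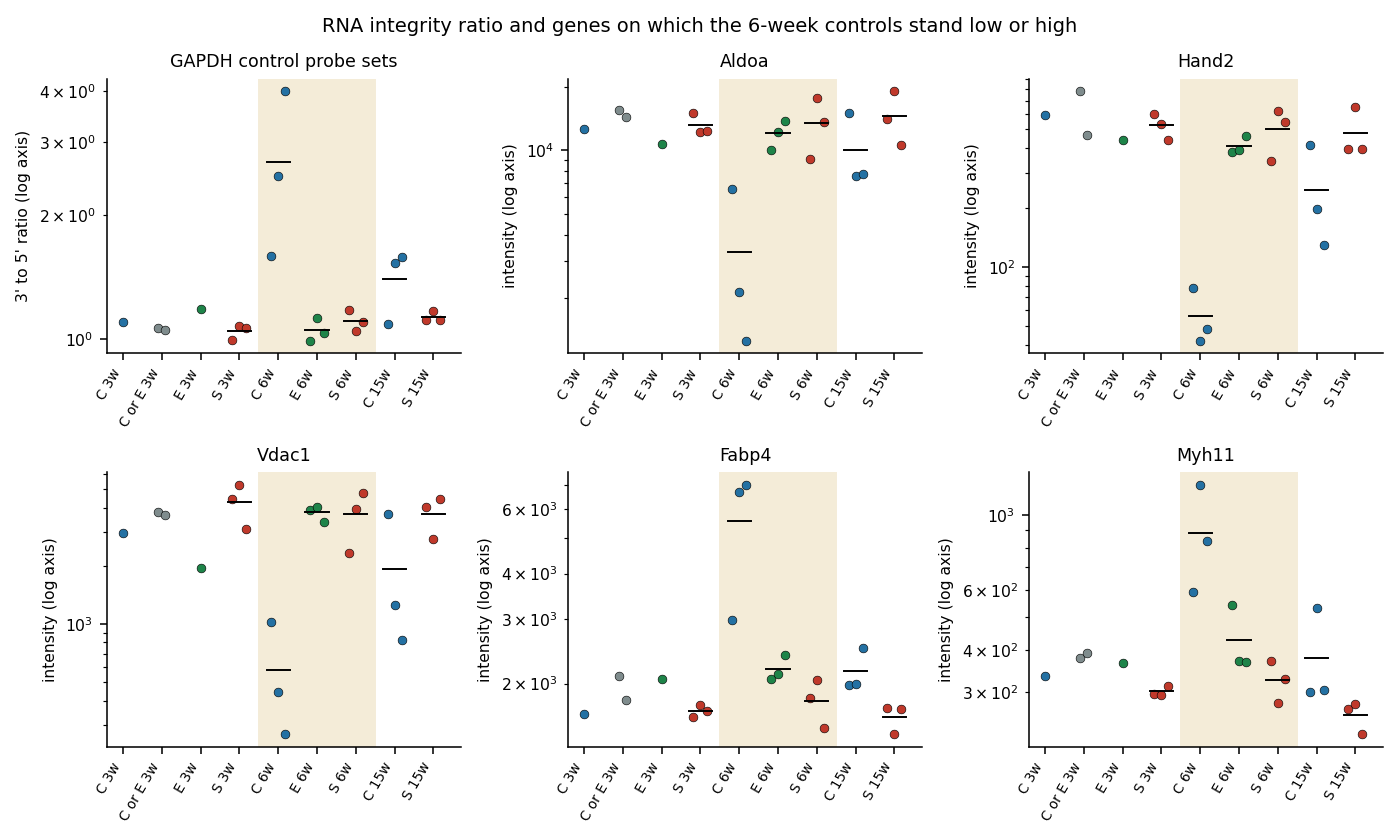
The GAPDH 3' to 5' ratio and the intensities of Aldoa, Hand2, Vdac1, Fabp4 and Myh11 on each distinct array, all on log axes, with groups, bars and shading as for the load genes. The 6-week controls have the ratios 1.58, 2.48 and 3.99 and lie below every other array for Aldoa and Hand2 and above every other array for Fabp4 and Myh11, while the salt arrays of 6 weeks lie within or close to the range of the remaining arrays.

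Several genes of fuel use rose against the 6-week controls, and their differences from the other non-salt arrays were smaller. Of 36 tested genes of fatty acid uptake and oxidation, 7 were higher and 1 lower (22.2% called), with a median of 0.262, beside 13.3% called and a median of -0.186 over all genes. Cd36, which carries fatty acids into the myocyte, read 1027, 2474 and 2924 on salt, 669, 177 and 239.5 in controls and 397 to 1858 elsewhere (2.51 ± 0.44, and 0.94 against the other non-salt arrays). Acot2, a mitochondrial thioesterase, and Hadhb, of the trifunctional protein of beta-oxidation, rose by 2.77 and 1.95 and stood at 0.35 and 0.57 against the other non-salt arrays. The median of the list was -0.085 there, so it had changed sign, and it was -0.272 in a fit with the GAPDH ratio as covariate. The 1 member that fell was Fabp4, described above.

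Of 55 genes of the respiratory chain and citric acid cycle 9 were higher and 0 lower (16.4% called, near the 13.3% of all genes, median 0.289). Vdac1, the channel of the outer mitochondrial membrane, read 2326, 3946 and 4799 on salt, 1025, 441 and 268 in controls and 821 to 4036 elsewhere. The salt arrays fell inside the range of the other non-salt arrays except for the salt array 3. Ndufs1, a subunit of complex I, and Cs, citrate synthase, rose by 2.20 and 1.82. Set against the other non-salt arrays, Vdac1, Ndufs1 and Cs stood at 0.41, 0.53 and 0.36, none called, and the list's median was 0.044. Of 28 genes of glucose transport and glycolysis 5 were higher and 2 lower (median 0.034). The 5 were Aldoa, the glycogen phosphorylase Pygm, the lactate carrier Slc16a1, Egln3 and the insulin receptor gene Insr. The 2 were Pfkfb2, which makes an activator of glycolysis (-1.31), and Hk2, an insulin-regulated hexokinase (-1.09, while its second probe set stood at 0.61). Slc16a1 read 1683, 3234 and 3713 against 1194, 682 and 431 and 1120.2 to 2364 elsewhere, and Gyg1, the primer of glycogen, 1224, 2698 and 2096 against 485, 176 and 142 and 413 to 1795.

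**Figure D5:**
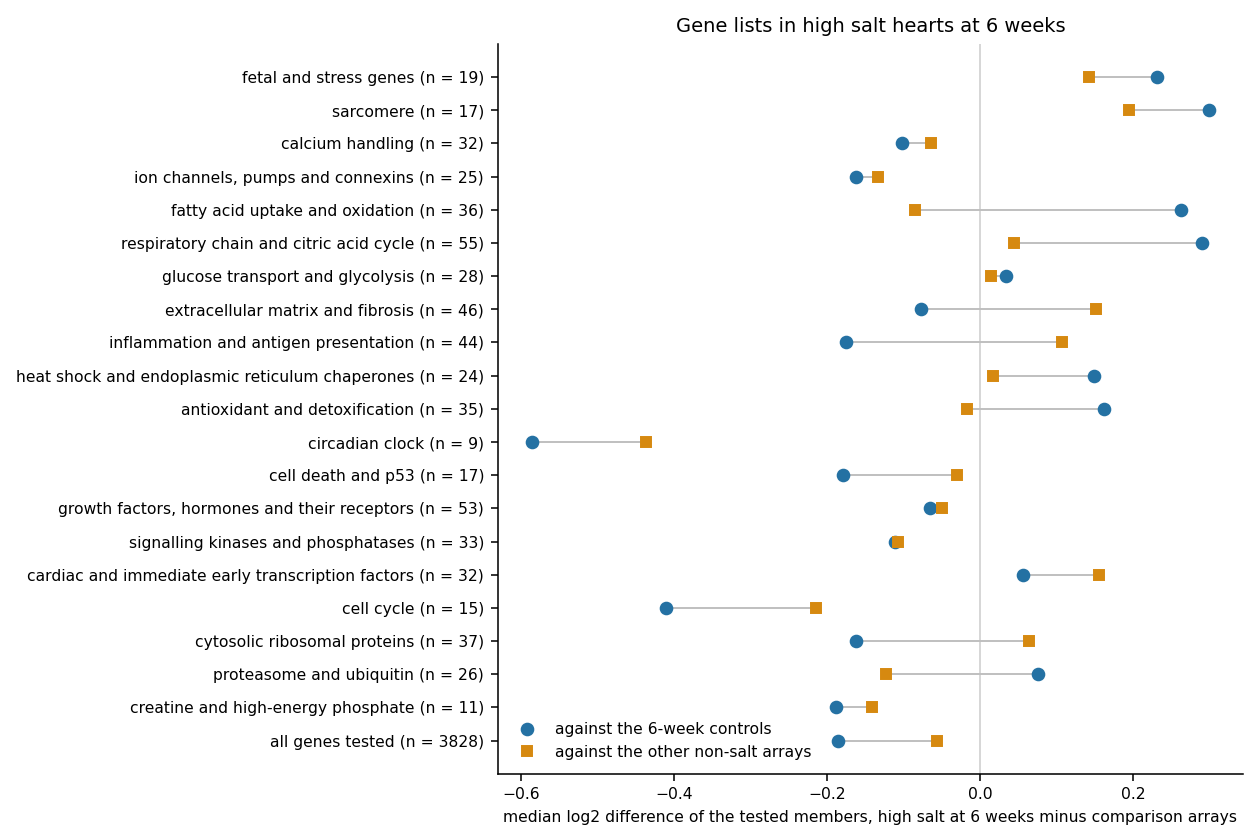
Median log2 difference of the tested members of each gene list for high salt at 6 weeks against the 6-week controls (circles) and against the 10 other non-salt arrays (squares), with the number of members tested beside each list. The fatty acid list moves from 0.262 to -0.085 and the respiratory list from 0.289 to 0.044, while the clock list is at -0.586 and -0.436 and all genes at -0.186 and -0.057.

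The contractile and electrical genes moved in both directions. Of 19 fetal and stress genes 6 were higher (Nppa, Nppb, Acta1, Ankrd1, Atp2a2 and Des) and 3 lower (Acta2, Tagln and Ace). This was 47.4% called, beside 13.3% of all genes, with a median of 0.231, and 0.142 against the other non-salt arrays. Only Nppa, Nppb, Acta1 and Ankrd1 among these 9 were also called against other arrays. Des, the intermediate filament of muscle, read 8011, 10960.0 and 8041 on salt and 7958, 5209 and 1612 in controls and stood at -0.0 against the other non-salt arrays. Its call was lost when any array other than the control 1 was left out. Of 17 sarcomere genes 3 were higher and 2 lower (29.4% called, median 0.299). Of these Pdlim3, a Z-disc protein, and Trim63, the muscle ubiquitin ligase MuRF1, both had -1.02, with controls above every other array, and they stood at -0.16 and -0.14 against the other non-salt arrays. Of 32 calcium genes 5 were higher and 3 lower (median -0.102). Pln, phospholamban, the brake on the calcium pump, read 6694, 9877 and 11041 against 4635, 2759 and 1406 (1.76 ± 0.33), and Casq2, the calcium store protein of the sarcoplasmic reticulum, rose by 1.48 ± 0.30. Cacna2d1, an accessory subunit of the L-type calcium channel, changed by -1.47 ± 0.29 and was at -0.88 against the other non-salt arrays (adjusted p = 0.085). Of 25 channel, pump and connexin genes 3 were higher (Gja1, Fxyd1 and Kcnq1) and 2 lower (Scn7a and Slc12a2), with a median of -0.162.

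Of 24 chaperone genes 3 were higher and 1 lower (16.7% called, beside 13.3% of all genes, median 0.149, and 0.016 against the other non-salt arrays). Besides Hsp90b1 these were Hspb1, a small heat shock protein, and Hspb6, its muscle relative. Hspb1 read 9888, 9159.8 and 9311 on salt, above all non-salt arrays, with 5672, 5194 and 5484 in controls and 3508 to 9128 elsewhere (0.79 ± 0.20, and 0.55 against the other non-salt arrays, adjusted p = 0.13). Hspb6 read 16374, 19607 and 22051 against 11427, 7461 and 4308 and 12283 to 16443. The 1 lower was Ddit3, encoding the stress factor CHOP (-1.07). Of 35 antioxidant genes 7 were higher and 1 lower (22.9% called, median 0.162, and -0.017 against the other non-salt arrays). Gpx1, the main glutathione peroxidase, read 11885, 13883 and 15722 against 9879, 6811 and 4886 and 10078 to 14083, and Prdx3, the mitochondrial peroxiredoxin, rose by 1.64 ± 0.34 and stood at 0.36. Of 17 cell death genes 4 were lower (Ddit3, Casp2, Bid and Bnip3l) and 1, Gadd45a, higher (29.4% called, median -0.179).

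A probe set of Gstk1, a glutathione transferase, reversed between references and is named for that reason after its values were seen. It read 925, 112 and 1712 on salt, 135, 93.6 and 40.9 in the 6-week controls and 837 to 1764 elsewhere. It was called higher against the 6-week controls (2.36 ± 0.72, adjusted p = 0.032) and stood at -1.03 against the other non-salt arrays, since the salt array 2 was as low as the controls. The call was lost without the salt array 1 or 3 or the control 2 or 3.

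Few matrix genes were called, and immune genes were called at a rate near that of all genes. Of 46 extracellular matrix genes 2 were higher, Lamc1 and Cdh2, and 1 lower, Fstl1 (6.5% called, median -0.078, and 0.151 against the other non-salt arrays). Col1a1, the main chain of type I collagen, read 7924, 4776 and 5447 on salt and 5066, 6977 and 11315 in controls on its brightest probe set (-0.32 ± 0.29, adjusted p = 0.51). Col3a1 read 7349, 5197 and 3872 and 4166, 4175 and 2893 (0.51 ± 0.32, 0.3). Spp1, osteopontin, read 501, 86 and 121 against 111, 72.8 and 76.1, high only on the salt array 1 (0.82 ± 0.44, 0.22). The groups overlapped for Col1a1 and Col3a1. Of 44 inflammation genes 4 were higher (Cd74, Lgals1, Il6st and Reg3b) and 1 lower, Ptgs1. This was 11.4% called, beside 13.3% of all genes (median -0.176, and 0.107 against the other non-salt arrays). Cd74, the invariant chain of antigen presentation, read 4946, 4418 and 4541 against 2784, 2690.4 and 2199 and 2736 to 4963 elsewhere (0.85 ± 0.17, and 0.32). Reg3b, a secreted lectin that stressed myocytes can make, read 6279, 474 and 36.8 on salt and 59.3, 78.4 and 12.6 in controls. Its difference of 2.89 ± 0.96 (adjusted p = 0.049) rested on the salt arrays 1 and 2, and the call was lost when any array other than the salt array 3 was left out.

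Signalling genes were called at rates near the 13.3% of all genes. Of 53 growth factor, hormone and receptor genes 6 were higher and 4 lower (18.9% called, median -0.066). Igf1, insulin-like growth factor 1, read 481, 236 and 231 on salt and 592, 909.8 and 893 in controls on its brightest probe set (-1.28 ± 0.26, and -0.55 against the other non-salt arrays, adjusted p = 0.27), while 4 dimmer probe sets did not pass. Ace, the angiotensin-converting enzyme gene, read 331, 169 and 229 and 351, 592 and 746 (-1.07 ± 0.26), a call lost without the salt array 2 or the control 3. Vegfb, a vascular growth factor, rose by 1.42 against the 6-week controls and stood at 0.03 against the other non-salt arrays. Of 33 kinase and phosphatase genes 3 were higher and 1, Gsk3b, lower (12.1% called, median -0.112). Of 32 transcription factor genes 3 were higher (Hand2, Gata4 and Junb) and 1, Klf9, lower (12.5% called, median 0.056). Prkar1a, the regulatory subunit of protein kinase A, read 2201, 4409 and 3794 against 1727, 1114 and 1159 (1.32 ± 0.24). Of 37 cytosolic ribosomal protein genes 3 were lower (8.1% called, median -0.162), at -0.72 to -0.53. Of 26 proteasome and ubiquitin genes 2 were higher and 2 lower (15.4% called, median 0.075). Of 15 cell cycle genes 1, Ccng1, was higher (6.7% called, median -0.411). Of 11 creatine and high-energy phosphate genes 1, Ak3, was lower (9.1% called, median -0.189).

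Markers of other cells of the heart moved beside these lists. Cardiomyocyte markers summed to 229162 to 309277 on the salt arrays and 191056 to 259247 in the 6-week controls, with 1 of 10 tested members, Pln, higher, so all arrays carried the signal of working myocardium. Mb and Mybpc3 were not among the tested markers. Endothelial markers fell in 3 of 6 tested members (Kdr, Nos3 and Egfl7): their sum was 2066 to 2815 on salt, 2908 to 4948 in the 6-week controls and 2238 to 3502 on the other non-salt arrays. Kdr, the main receptor for vascular endothelial growth factor, read 329, 356 and 362 against 689.9, 843 and 679 and 145 to 816 elsewhere, and Nos3, endothelial nitric oxide synthase, changed by -1.29 ± 0.29. Of 7 smooth muscle and pericyte markers 3 fell (Acta2, Tagln and Myh11) and 2 rose (Des and Pdgfrb), which was 71.4% called. The sums were 12815 to 15297 on salt and 10589 to 19868 in controls. Myh11, smooth muscle myosin, read 372, 280.0 and 329 against 591, 1227 and 836 and 301 to 544, so all 3 controls lay above the range of the other non-salt arrays and the salt array 2 just below it. Adipocyte markers summed to 4205 to 5231 on salt, 6599 to 11480 in the 6-week controls and 4888 to 7120 elsewhere. Of 5 tested members Fabp4 and Lipe were lower and 3 were not called. The differences of 3 members were above 0, with a list median of 0.042. Fabp4 alone read 2993, 6684 and 7001 in the 6-week controls. Leukocyte markers summed to 6209 to 8398 on salt, 4660 to 4925 in controls and 5023 to 7524 elsewhere; Cd74 was higher and Ptprc, the common leukocyte antigen, lower. None of 8 fibroblast markers was called, and their sums overlapped (27274 to 35769 against 25670 to 37039). Each of the mast cell, red blood cell and skeletal muscle lists had 1 member lower (Cma1, Hba-a3 and Tnnt3), and of 7 nerve markers 2 were lower (Npy and Prph) and 1, Nefl, higher. Many of these calls, like those of the lists, were at the edge of the threshold: of 145 named called probe sets 84 were called with each of the 6 arrays left out in turn, and 40, 38, 40 and 52 lost the call without the salt array 2, the salt array 3, the control 2 and the control 3, with no change of sign. The calls so lost include those of Acta2, Tagln, Pdgfrb, Kdr, Egfl7, Ptprc, Cma1, Hba-a3, Tnnt3, Prph and Nefl among the markers, and Fxyd1, Kcnq1, Pygm, Pfkfb2, Hk2, Insr, Vegfb, Gata4, Junb, Lamc1, Cdh2, Fstl1, Lgals1, Il6st, Ptgs1, Gadd45a, Casp2, Bid, Bnip3l, Rpl27a, Rpl35, Ak3, Gpt and the higher Tpm1 probe set. In pieces of tissue, fewer cells of a type and less RNA per cell cannot be told apart, and the part of these cells in the results above was not tested.

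Several genes carry more than 1 probe set, and these did not always move together. Of 1124 genes with 2 or more tested probe sets, 350 had a called one, and among those 121 had probe sets of both signs. Apbb1, Atp2a2, Cyb5r3 and Tpm1 had probe sets called in both directions. For Atp2a2, the calcium pump of the sarcoplasmic reticulum whose mRNA is known to fall in failing hearts, the brightest probe set read 28061, 30996 and 44070.0 on salt and 27704, 19644 and 18242 in controls (0.65 ± 0.20, adjusted p = 0.032), a call lost when any array but the salt array 1 or the control 1 was left out. A dim one read 714, 562 and 793 and 1257, 1559 and 1343 (-0.97 ± 0.18, 0.0015), and 2 others stood at 0.27 and 0.46 without a call. Against the other non-salt arrays the first 2 stood at 0.39 and -0.47, neither called. For Tpm1, alpha-tropomyosin, the probe sets ranged from -1.69 to 1.02, and its brightest gave 0.61 ± 0.22 (adjusted p = 0.069). Probe sets of 1 gene can read different parts or isoforms of its transcripts. The place of each on its transcript is not given in the sources used here, so it was not set against the integrity ratio.

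The effect of salt was also compared with that at 15 weeks, where the controls had lower GAPDH ratios. The difference between the salt effects at 15 and 6 weeks was called on 105 probe sets (1.6%), 52 above and 53 below 0, and on 298 without the 6-week control 1 and 55 without the control 2. Nppa and Acta1 were not among them: the difference for Nppa was 0.16 ± 0.41 (adjusted p = 0.89) and for Acta1 -0.01 ± 0.25 (1). For Nppb the salt effect was 1.91 at 6 weeks and -0.37 at 15 weeks, a difference of -2.29 ± 0.39 (0.0041). Dbp did not differ between weeks by the test, with 0.32 ± 0.80 (0.88) and salt effects of -3.44 and -3.12.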

How the data were processed

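Left ventricle RNA had been hybridised to an Affymetrix rat array. The authors deposited linear intensity values for 8799 probe sets on each array, and the trimmed means (2% off each end) of its columns lay between 499.979 and 499.985, so the authors had scaled them to a common level. How the authors summarised probes and removed background is not given in the sources used here. Precision is limited by the number of arrays. Groups came from titles. Columns of 2 arrays appear under both labels at 3 weeks and were left out of the main fit.

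After removal of 59 control probe sets and of probe sets whose mean fell short of the 25th percentile (41.87), 6555 were tested. A linear model with 1 mean per group on log2(intensity + 40) was fitted over 20 arrays with limma 3.58.1 in R 4.3.3 (12 residual degrees of freedom, intensity trend, Benjamini-Hochberg adjustment over all 6555), and was tested on simulated data. The log2 scale, on which differences of dim genes are understated, was computed here from the deposited values. The annotation gave 1 symbol for 7018 probe sets, several for 308 and none for 1473.

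Named genes were the 12 largest non-overlapping calls in each direction, up to 15 in each direction also called against other arrays, up to 5 called members of each list, the 6 largest in each direction at each range position, and a set of load, clock and matrix genes. Members, lists and rule were chosen with earlier results of these data known. Promoter windows are RefSeq sequences of GRCr8. Replicate numbers did not pair the arrays: same-numbered salt and control arrays correlated at -0.228, -0.044 and -0.102 in their deviations from the group means. Alternatives covered scaling, pseudocount, filter, covariates, weights, block and each array left out.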

Additional observations from a re-analysis of the deposited data

Results flagged for a closer look

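The results below are the named probe sets whose salt effect differed between 6 and 15 weeks by the test of the difference itself. They are a part of the 105 probe sets called in that test. Each pair of values is the log2 difference between high salt and control at 6 and then at 15 weeks, with the difference of the later from the earlier. Nppb and 1 probe set of Myh6 were above 0 at 6 weeks and below at 15: Nppb stood at 1.91 and -0.37 (difference -2.29, adjusted p = 0.0041), and Myh6 at 1.78 and -0.48 (difference -2.26, adjusted p = 0.027). A lower value at 15 weeks was also seen for Fat1 and Hsp90b1: Fat1 had 2.56 and 0.05 (difference -2.5, adjusted p = 0.017), and Hsp90b1 1.18 and 0.21 (difference -0.96, adjusted p = 0.05). Cd74 changed sides: it had 0.85 and -0.93 (difference -1.78, adjusted p = 0.00047). The collagen probe sets called in this test were near or above 0 at 6 weeks and below at 15. The brightest probe set of Col1a1, given above, was not among them. Of Col1a1, 2 probe sets had -0.04 and -2.28 (difference -2.24, adjusted p = 0.0043) and -0.01 and -1.78 (difference -1.77, adjusted p = 0.017), and those of Col3a1 had 0.76 and -2.0 (difference -2.76, adjusted p = 0.00077) and 0.51 and -3.04 (difference -3.55, adjusted p = 0.00032). Among these named probe sets those of Alox15 had the largest differences: they gave -1.28 and 5.87 (difference 7.14, adjusted p = 3.2e-08) and -0.18 and 3.86 (difference 4.04, adjusted p = 5.9e-08). Several genes were lower on salt at 6 weeks and above 0 at 15. Ace had -1.07 and 0.64 (difference 1.71, adjusted p = 0.017) and Bnip3l -0.72 and 0.64 (difference 1.36, adjusted p = 0.022). Epb41 had -1.70 and 0.23 (difference 1.92, adjusted p = 0.0079) and Hba-a3 -0.88 and 0.94 (difference 1.82, adjusted p = 0.005). Lipe had -1.01 and 0.46 (difference 1.47, adjusted p = 0.011) and Npy -1.0 and 0.40 (difference 1.4, adjusted p = 0.044). Pdlim3 had -1.02 and 0.36 (difference 1.38, adjusted p = 0.0093) and Pim3 -0.95 and 0.26 (difference 1.2, adjusted p = 0.028). The GAPDH ratio differs between salt and control arrays more at 6 than at 15 weeks, and its part in these differences was not tested.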

How the results depend on the processing

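The count of 942 for high salt against control at 6 weeks was 388 in a fit of the compared groups alone, 1792 with array weights, 15 with the GAPDH covariate and 0 with the actin ratio as a covariate (632 at an unadjusted p under 0.05 in limma), 22 with the other controls or the other non-salt arrays in place of the 6-week controls, and 36 with the control numbered 1 alone. With 1 array left out it ranged from 454 to 1231; it was 585 and 500 without the salt arrays 2 and 3, and 524 and 454 without the controls 2 and 3. It was 846 to 991 for other pseudocounts and filters, 932 after quantile normalization and 1236 with all 24 columns. The replicate block gave 889 calls. Of 145 named called probe sets, 84 were called with each of the 6 arrays left out in turn. Against the other controls the count of 22 was 13 after quantile normalization, 11 without the filter, 4 without the 15-week controls 2 and 3, and 2 to 55 with a salt array left out. Against the other non-salt arrays it was 7 to 42 with a salt array left out. Leaving out the salt array 2 gave the lowest and the salt array 1 the highest count in both. For the 6-week against the other controls, 157 became 103 without the filter and 0 (906 at an unadjusted p under 0.05) to 610 with a control left out. For high salt against exercise, 1 became 0 after quantile normalization or without the filter (441 and 535 at an unadjusted p under 0.05 in limma) and 2 with 4 times the pseudocount. For the difference between 6 and 15 weeks, 105 became 55 to 298 with an array left out, the ends being without the controls 2 and 1. In the GAPDH fit these named probe sets changed sign: Bnip3l 0.069, Cdh2 -0.209, Des -0.777, Fstl1 0.426, Mgst3 -0.018 and Nos3 0.094. Others that did so were Prdx3 -0.15, Pygm -0.225, Slc25a11 -0.094, Tpm1 -0.302, Vegfb -0.051 and Pdha1 -0.04. That Pdha1 probe set is the one that rose by 1.26 against the 6-week controls. With the actin ratio Acta2 was at 0.067 and Kcnq1 at -0.175. With the other non-salt arrays as controls Adrb1 was at -0.096, Des -0.001, Egfl7 0.048, Gstk1 -1.033, Kdr 0.118 and Tnnt3 0.049, and with the other controls Gstk1 was at -1.016, Rpl27a 0.037 and Tnnt3 0.026. The causes were not tested. In the fit with the GAPDH covariate the medians of the matrix, inflammation and fatty acid lists were 0.373, 0.323 and -0.272. Alternatives were run as listed, and 3 arrays a group limit all of them.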
